A study of Mus musculus with 30 samples.

Results

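The 10 genes described here carry out or feed the creatine and adenine nucleotide side of energy supply in muscle. They are the 4 creatine kinase genes Ckm, Ckb, Ckmt1 and Ckmt2, the adenylate kinase gene Ak1, the AMP deaminase genes Ampd1 and Ampd3, and the creatine synthesis and uptake genes Gatm, Gamt and Slc6a8. They were picked by symbol, and all 10 were found among the 26264 genes listed in each library. The tissue was the mouse tibialis anterior, a shin muscle made up mostly of fast fibres, from both sexes, and total RNA was sequenced. Injured muscles were sampled on day 4, 7, 11 or 15 following volumetric muscle loss, the removal of a block of muscle, and uninjured muscles were the controls. Each of the 10 combinations of sex and time had 3 libraries, so that each condition had 6. The labels name no strain, age, genotype or added agent, and do not say whether libraries came from separate animals or whether injured and uninjured muscle shared an animal. The p-values therefore measure the spread between these libraries.

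Creatine kinase moves a phosphate group between ATP and creatine, and phosphocreatine is the reserve that rebuilds ATP within the first seconds of contraction. The cytosolic enzyme has a muscle form, encoded by Ckm, and a brain form, encoded by Ckb, and developing muscle is known to change from the brain form to the muscle form as fibres mature. Ckmt2 and Ckmt1 encode the sarcomeric and the ubiquitous enzyme of mitochondria. Adenylate kinase 1 rebuilds ATP from pairs of ADP molecules and so releases AMP, which AMP deaminase turns into IMP. Ampd1 encodes the deaminase of skeletal muscle, and Ampd3 the form best known from red blood cells. Creatine is made in steps by the enzymes encoded by Gatm and Gamt, mainly in other organs, and enters muscle fibres through the transporter encoded by Slc6a8.

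The promoters of 2 genes that fell and 2 that rose after injury are shown first, because these genes show large changes in opposite directions. Each is the stretch from 250 bases before to 50 bases after the annotated start in RefSeq's annotation of GRCm38.p6, printed 5′ to 3′ on the gene's strand. Capitals mark matches to the E-box CANNTG, the motif bound by myogenic bHLH factors, or to the MEF2 consensus, searched on both strands.
Ckm (chr7:19410844-19411143, plus strand): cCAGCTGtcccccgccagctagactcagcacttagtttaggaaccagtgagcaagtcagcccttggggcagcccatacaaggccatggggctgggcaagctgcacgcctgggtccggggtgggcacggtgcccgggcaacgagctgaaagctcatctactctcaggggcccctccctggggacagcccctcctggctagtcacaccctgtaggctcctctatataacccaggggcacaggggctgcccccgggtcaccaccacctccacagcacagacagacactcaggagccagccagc
Ckmt2 (chr13:91876836-91877135, minus strand): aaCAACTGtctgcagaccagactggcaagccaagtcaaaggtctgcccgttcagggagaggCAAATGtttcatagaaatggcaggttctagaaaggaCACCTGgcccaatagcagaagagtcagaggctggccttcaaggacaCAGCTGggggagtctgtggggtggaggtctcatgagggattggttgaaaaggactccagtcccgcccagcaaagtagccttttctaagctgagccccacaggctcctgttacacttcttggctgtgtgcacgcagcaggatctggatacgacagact
Ckb (chr12:111672289-111672588, minus strand): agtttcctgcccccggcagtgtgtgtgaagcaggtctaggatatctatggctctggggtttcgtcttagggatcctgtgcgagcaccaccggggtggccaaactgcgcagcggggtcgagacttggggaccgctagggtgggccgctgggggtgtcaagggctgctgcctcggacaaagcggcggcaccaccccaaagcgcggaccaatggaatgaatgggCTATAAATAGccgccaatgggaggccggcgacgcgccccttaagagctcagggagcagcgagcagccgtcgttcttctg
Gatm (chr2:122611228-122611527, minus strand): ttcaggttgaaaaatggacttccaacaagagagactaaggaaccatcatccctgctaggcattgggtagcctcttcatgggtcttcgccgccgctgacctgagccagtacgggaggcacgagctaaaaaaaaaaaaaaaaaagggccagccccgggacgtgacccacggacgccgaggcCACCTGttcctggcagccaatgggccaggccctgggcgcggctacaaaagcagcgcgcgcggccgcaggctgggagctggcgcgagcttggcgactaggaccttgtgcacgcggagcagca
The Ckm window held 1 E-box, of the form CAGCTG, and the Ckmt2 window held 4, of which 1 was CAGCTG and 1 was CACCTG. The Gatm window held 1 E-box, of the form CACCTG, and no CANNTG was found in the Ckb window, which held 1 MEF2 match that overlapped TATAAA. Of 32851 promoters of this length in the table, 72.3% held CANNTG, 16.3% held CAGCTG, 20.2% held CACCTG, 13.6% held TATAAA and 3.19% held the MEF2 consensus. Promoters of 8 of the 10 genes were in the table, and these matches are a description of letters only.

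Total counts per library were 13089999 to 57277336, with the highest range at day 4 and the lowest at day 15, and 17136 genes passed the low-count filter. Of the 10 genes 9 passed it and Ckmt1 did not. Levels are given as CPM, the usual measure of counts relative to the library total, with that total scaled by TMM factors, and log2 fold changes are injured over uninjured, ± SE, from edgeR's quasi-likelihood fit across all tested genes. The summed CPM of 15 markers of mature fast fibres was 11984 to 73893 at day 4, against 389301 to 560930 in uninjured muscle, and none of the 15 was at 0. The sum of 12 macrophage markers was 2064 to 2906 CPM at day 4, against 30.3 to 45.3 CPM in uninjured muscle, and 7 erythroid markers summed to 5.61 to 52.3 CPM at day 4, against 9.36 to 40.7 CPM. In whole muscle, fewer cells of a type and less RNA per cell cannot be told apart. A pair of libraries was treated as standing apart. Female day 4 replicate 2 had the lowest fibre marker sum, 11984 CPM, against 49889 to 73893 CPM in the other 5 libraries of that day. The library labelled female day 11 replicate 3 held Ddx3y, a Y-linked gene, at 57.4 CPM and Xist at 0.109 CPM, so its sex genes go against its label, and its macrophage marker sum was 213 CPM. Both were kept, and values without them are given beside some of the results. Female day 7 replicate 3, also kept, had the lowest fibre marker sum of its day, 28504 CPM. The other libraries of day 7 had 63671 to 181655 CPM. Its TMM factor, 1.57, was the highest of all 30 libraries. It was left out only in the runs without 1 library at a time.

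All 9 tested genes differed from uninjured muscle at each of the 4 days, 4 in the direction of a rise (Ckb, Ampd3, Gatm and Gamt) and 5 in that of a fall (Ckm, Ckmt2, Ak1, Ampd1 and Slc6a8). Such calls were common, since 73.1% of all tested genes were called at day 4 (40.1% higher and 33.0% lower), 71.5% at day 7 (41.6% and 29.9%), 72.4% at day 11 (42.7% and 29.7%) and 69.0% at day 15 (39.7% and 29.3%). The direction of Slc6a8 depended on the scaling. With library size alone in place of TMM factors, the median log2 fold change of all genes at day 4 was 1.47, against 0.17 with TMM, and the members split into 5 higher and 4 lower because Slc6a8 stood at 0.64. The same split, 5 higher and 4 lower, was found with library size alone at days 7 and 11, and at day 15 it was 4 higher and 3 lower, with Ckmt2 and Slc6a8 not called. Relative to the median of all genes, Slc6a8 lay 0.82 lower at day 4 on that scaling, and the other 8 genes kept their directions at every day.

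**Figure D1:**
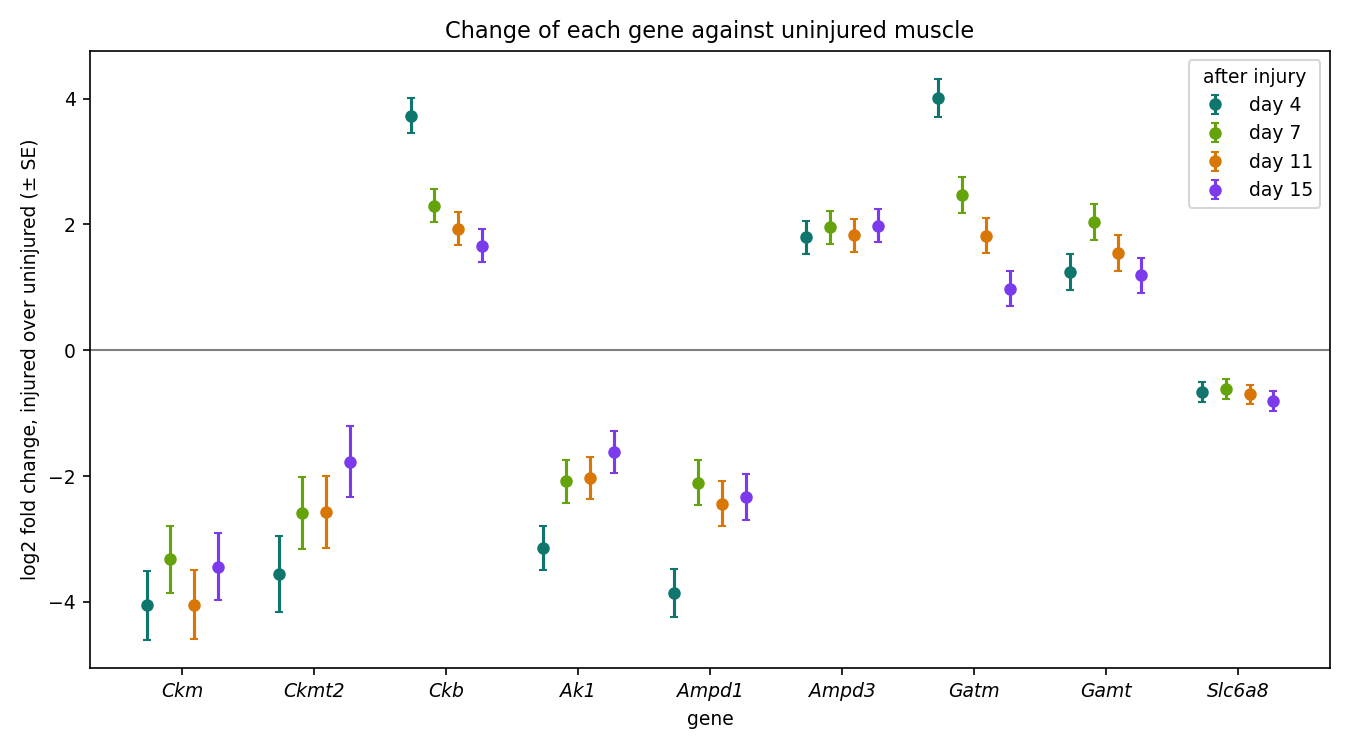
Log2 fold change of each gene in injured over uninjured muscle at days 4, 7, 11 and 15, with TMM scaling, as points with bars of 1 SE (6 libraries per condition). Ckm lies lowest at every day, at -4.06 on day 4 and -3.44 on day 15, and Gatm shows the largest shift between days, with 4.01 on day 4 and 0.98 on day 15.

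Ckm, the muscle creatine kinase gene, fell furthest. It had a lowest, median and highest level of 321, 1892 and 2567 CPM at day 4, against 19787, 29424 and 37096 CPM in uninjured muscle. Its median was 2019 CPM at day 7, 1526 CPM at day 11 and 2642 CPM at day 15. No injured library reached the lowest uninjured one at any day, and the highest of them, a male library of day 7, stood at 6257 CPM. On the log2 scale Ckm changed by -4.06 ± 0.55 at day 4 (adjusted p = 3.67e-07), -3.33 ± 0.53 at day 7, -4.05 ± 0.55 at day 11 and -3.44 ± 0.53 at day 15. The day 4 value corresponds to 0.0602 of the uninjured level. Without female day 4 replicate 2 it was -3.83 ± 0.54. The day 7 libraries of Ckm reached down to 347 CPM, and the day 7 change ranged from -4.20 to -3.15 with 1 library left out.

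Ckmt2, the gene of the mitochondrial enzyme of sarcomeric muscle, fell with it and then came back in part. It stood at 33.1, 365 and 788 CPM (lowest, median and highest) at day 4, against 2952, 4046 and 5653 CPM in uninjured muscle. The medians of days 7, 11 and 15 were 554, 560 and 1358 CPM. The 6 libraries of day 15 reached up to 1859 CPM and did not overlap with uninjured muscle. Ckmt2 changed by a log2 fold of -3.56 ± 0.60 at day 4 (adjusted p = 9.26e-06; -3.32 ± 0.59 without female day 4 replicate 2) and -1.77 ± 0.56 at day 15 (adjusted p = 0.00697). Day 15 was higher than day 4 by 1.79 ± 0.56 (log2, adjusted p = 0.00963), a change that Ckm did not pass (0.61 ± 0.49, adjusted p = 0.298); the difference between the 2 genes was not tested. With library size alone Ckmt2 at day 15 was no longer called (-0.77, adjusted p = 0.143). At day 7 its libraries reached down to 41.4 CPM. The log2 fold change of that day was -2.58 ± 0.58, and it ranged from -3.56 to -2.38 with 1 library left out.

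Ckb, the brain-type creatine kinase gene, rose. It stood at 185, 219 and 259 CPM (lowest, median and highest) at day 4, against 11.9, 15.9 and 22.0 CPM in uninjured muscle. Its medians were 73.0, 66.7 and 62.1 CPM at days 7, 11 and 15, and the lowest injured library of all, at 29.7 CPM on day 15, still lay above the highest uninjured one. This was a log2 fold change of 3.73 ± 0.28 at day 4 (adjusted p = 3.62e-11), which is 13.3-fold, and 2.30 ± 0.27, 1.93 ± 0.26 and 1.66 ± 0.26 at days 7, 11 and 15. Its day 4 libraries overlapped with those of no other condition.

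Ckmt1, the gene of the ubiquitous mitochondrial enzyme, was at the limit of detection. All 6 day 4 libraries held between 1 and 8 counts, 20 in total, against 0 counts in all 6 uninjured libraries, where 3 counts over the summed total, without TMM scaling, would be 0.0111 CPM. There were 7 counts at day 7 and 13 at day 11, in 4 libraries each, and 0 at day 15, where the floor of 3 counts was 0.0217 CPM because those libraries were shallower. It was not tested. Its locus overlaps that of Strc in RefSeq, which reached at most 0.60 CPM in any library.

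**Figure D2:**
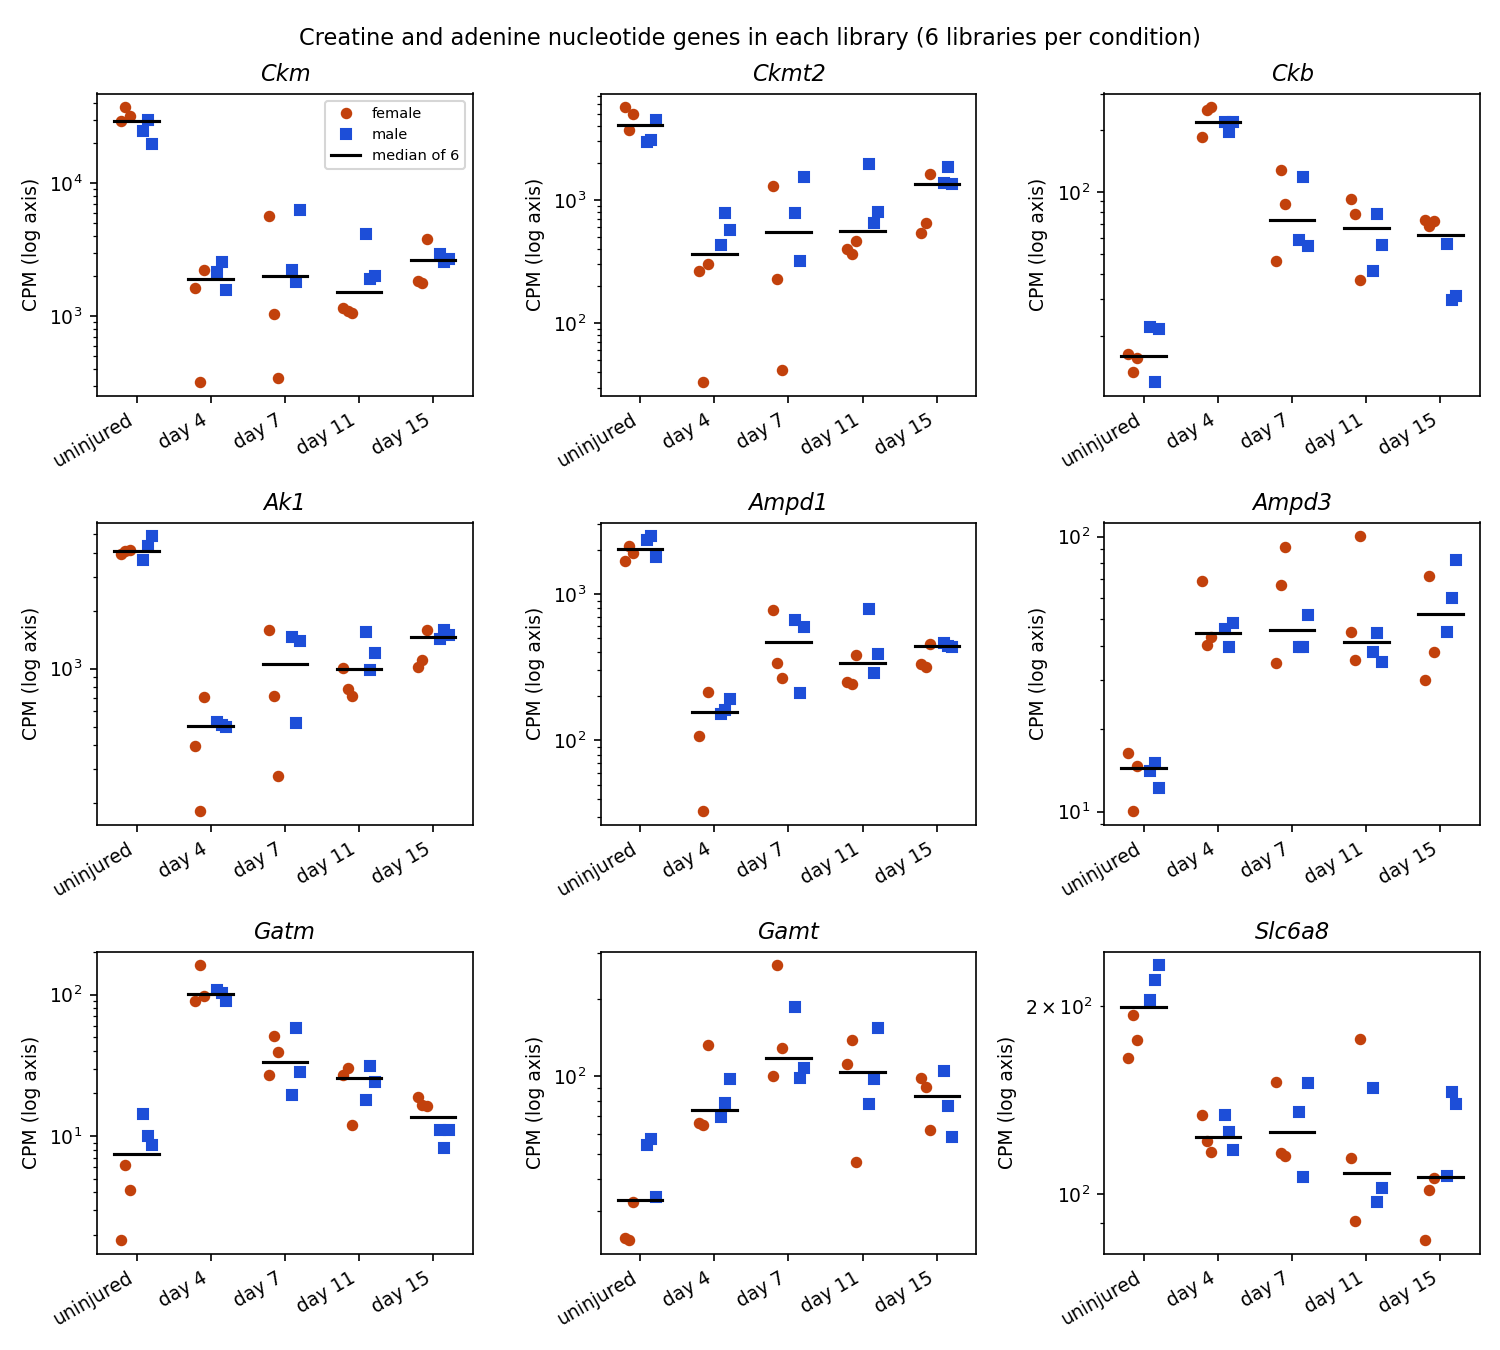
CPM of the 9 tested genes in each library on log axes, by condition from uninjured to day 15, with females as circles, males as squares and the median of 6 as a bar. The uninjured libraries of Ckm, Ckmt2, Ak1 and Ampd1 lie above every injured one, those of Ckb and Ampd3 below every injured one, and those of Gatm, Gamt and Slc6a8 overlap with at least 1 later day.

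The balance of muscle and brain type was taken as the ratio of the counts within a library, which does not depend on the scaling. In day 4 libraries 1.28, 8.71 and 13.1 counts of Ckm were found per count of Ckb (lowest, median and highest), against 917, 1918 and 2778 in uninjured muscle. The medians were 26.7, 26.4 and 53.1 at days 7, 11 and 15. No injured library overlapped with an uninjured one, the highest being 122 on day 7. The log2 ratio of Ckb to Ckm was higher than in uninjured muscle by 8.01 ± 0.56 at day 4, which is 257-fold, by 6.09 ± 0.87 at day 7, by 5.97 ± 0.52 at day 11 and by 5.13 ± 0.42 at day 15, the last being 35.0-fold (difference of means ± SE, n = 6 each). In an exact two-sided permutation test each gave p = 0.00216, the smallest that 6 against 6 libraries allow, and 0.00216 after adjustment over 8 ratio tests. Ckb rose and Ckm fell without overlap at every day, so this p was fixed by their levels and adds no further support. The lowest ratio of Ckm to Ckb was that of female day 4 replicate 2, and the day 4 difference was 7.53 without it.

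**Figure D3:**
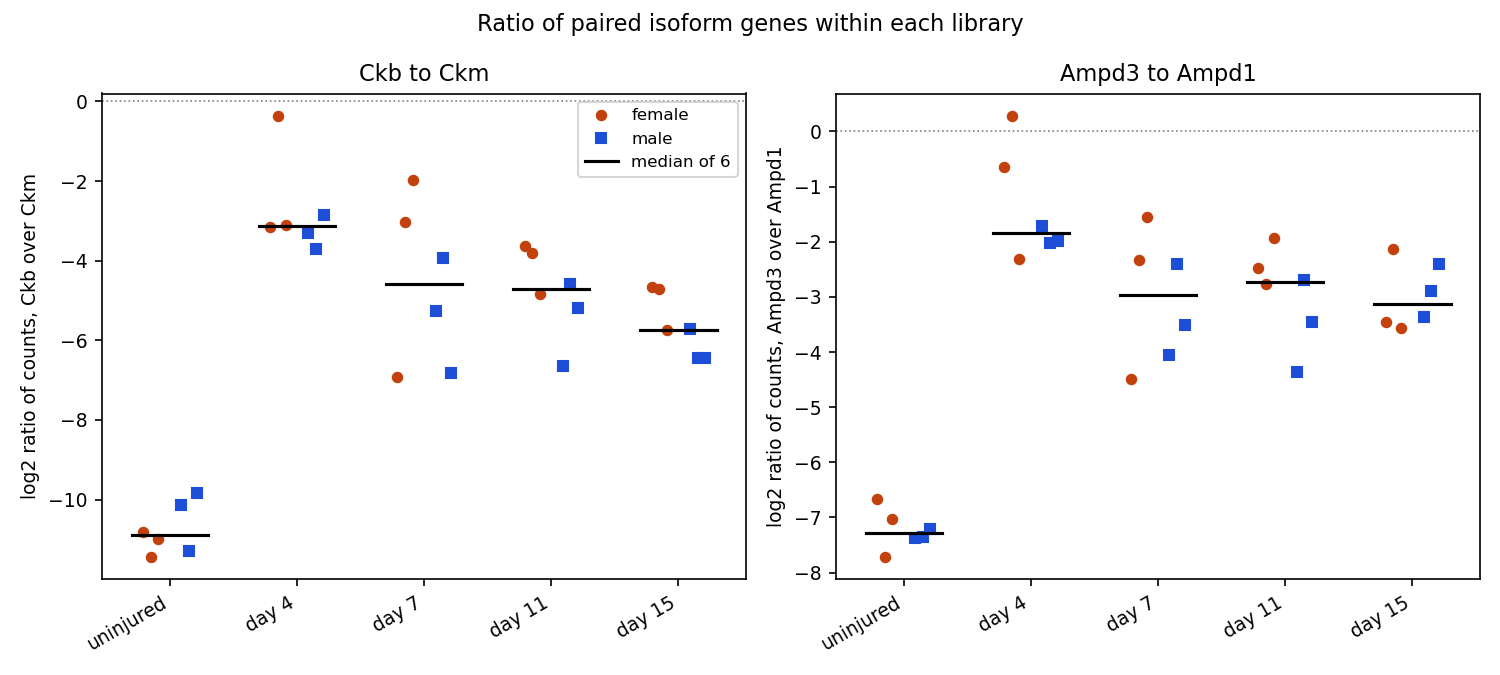
Log2 ratio of the counts of Ckb over Ckm (left) and of Ampd3 over Ampd1 (right) in each library, by condition from uninjured to day 15, with females as circles, males as squares and the median of 6 as a bar. All injured libraries lie above all uninjured ones in both panels, and the dotted line at 0 marks equal counts, which the Ampd3 to Ampd1 ratio passed in 1 library, at 0.29.

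Set against exon length, to compare the kinases with each other, Ckm had the largest median share of the 4 in every condition. It took a median of 78.8% of the length-scaled creatine kinase counts in uninjured muscle, 63.3% at day 4, 67.1% at day 7, 55.9% at day 11 and 53.1% at day 15. The share of Ckmt2 began at 21.2% in uninjured muscle, followed by 24.1, 29.3, 41.3 and 45.9% on the 4 injured days, and that of Ckb began at 0.0391%, followed by 7.77, 3.08, 2.14 and 1.01%. At days 11 and 15 the lowest shares of Ckmt2, 37.9 and 35.2%, lay above the highest in uninjured muscle, 30.4%, whereas at days 4 and 7 the ranges overlapped. The Ckb share of female day 4 replicate 2 was 39.5%. Among all 10 genes Ckm had the highest median level per kilobase in uninjured muscle and at days 4, 7 and 11. At day 15 the medians were 914 CPM per kilobase for Ckmt2 and 907 for Ckm, with overlapping ranges. Within the day 15 libraries Ckm had the smaller share of the 2 only in male day 15 replicate 2, at 41.1% against 58.4%. Exon lengths came from GENCODE M21, which may differ from the annotation behind the counts. Each was the union of all annotated exons of the gene, 2913 bases for Ckm, 2895 for Ckb and 1486 for Ckmt2. The shares and levels per kilobase depend on this choice, and other lengths were not tried.

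**Figure D4:**
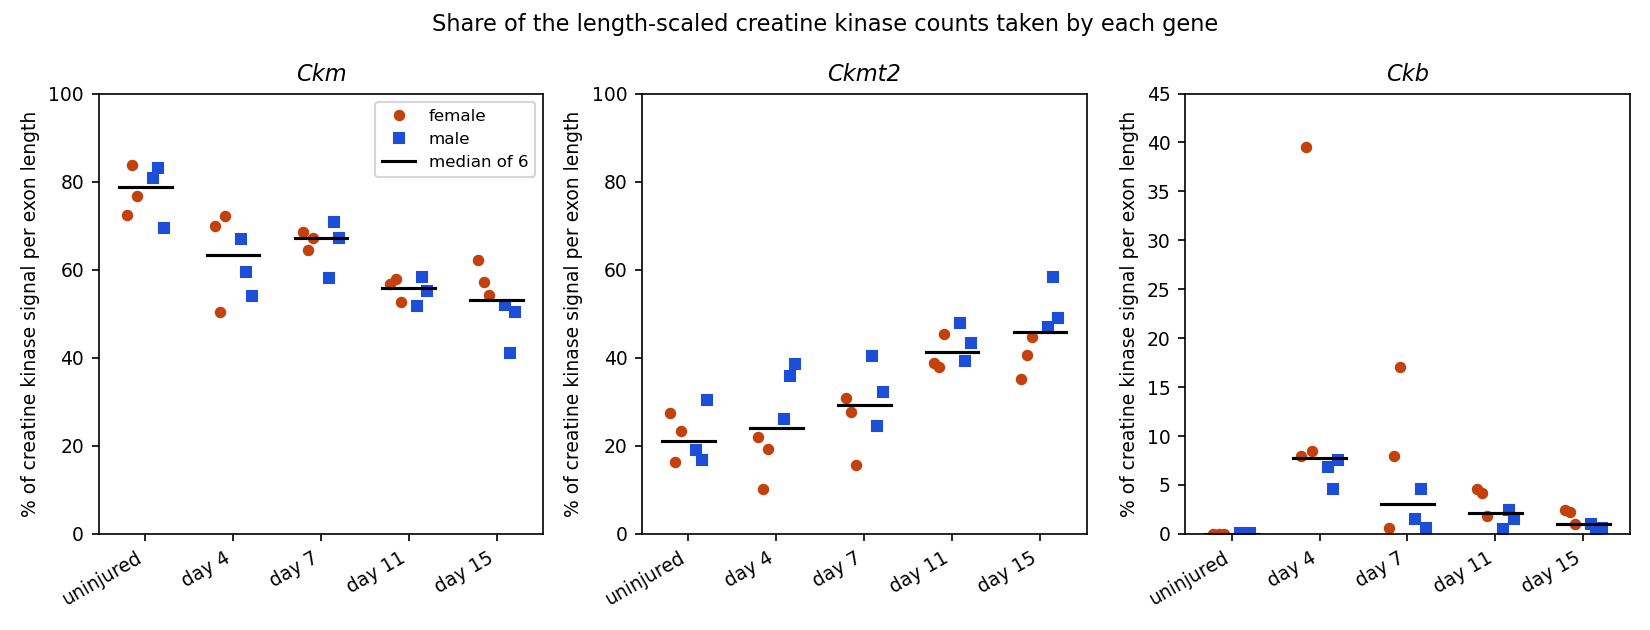
Percentage of the length-scaled creatine kinase counts taken by Ckm, Ckmt2 and Ckb in each library, by condition from uninjured to day 15, with females as circles, males as squares and the median of 6 as a bar. The Ckb panel ends at 45%, and its highest point is the 39.5% of female day 4 replicate 2.

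Ak1, the main adenylate kinase gene of the muscle cytosol, fell and returned in part. It stood at 182, 502 and 714 CPM (lowest, median and highest) at day 4, against 3655, 4096 and 4859 CPM in uninjured muscle, and at medians of 1053, 994 and 1451 CPM at days 7, 11 and 15. The highest injured level, 1591 CPM at day 15, was below every uninjured library. Its log2 fold change was -3.15 ± 0.35 at day 4 (adjusted p = 1.98e-08) and -1.61 ± 0.33 at day 15 (adjusted p = 0.000151).

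Ampd1, the AMP deaminase gene of skeletal muscle, fell to 33.0, 157 and 214 CPM (lowest, median and highest) at day 4, against 1663, 2012 and 2468 CPM in uninjured muscle. Its medians were 466, 337 and 440 CPM at days 7, 11 and 15, and no injured library passed 782 CPM. The log2 fold change was -3.86 ± 0.38 at day 4 (adjusted p = 2.55e-09), -2.10 ± 0.36 at day 7, -2.44 ± 0.36 at day 11 and -2.33 ± 0.36 at day 15. Without female day 4 replicate 2 the day 4 value was -3.65 ± 0.35.

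Ampd3 rose, and no difference between its injured days was called in the contrasts tested. It stood at 39.6, 44.7 and 69.1 CPM (lowest, median and highest) at day 4, against 10.04, 14.4 and 16.4 CPM in uninjured muscle. Its medians at days 7, 11 and 15 were 45.9, 41.3 and 52.3 CPM, and the injured libraries, from 30.1 to 100.3 CPM, did not overlap with the uninjured ones. Its log2 fold change was 1.80 ± 0.26 at day 4 (adjusted p = 1.08e-06), 1.95 ± 0.26 at day 7, 1.83 ± 0.26 at day 11 and 1.98 ± 0.26 at day 15 (adjusted p = 4.58e-07). The highest level, 100.3 CPM, was in the library labelled female day 11 replicate 3, and without that library the day 11 value was 1.49 ± 0.24. Ampd3 is also a gene of red blood cells. Of the 7 erythroid markers 4 were at 0 in all uninjured, day 7, day 11 and day 15 libraries, and 3 at day 4, and the sum was 2.34 to 52.3 CPM across injured libraries, against 9.36 to 40.7 CPM in uninjured ones. Only 3 of the 7 passed the low-count filter, and the part of red blood cells in the Ampd3 values was not tested.

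The deaminases moved in opposite directions within the libraries. At day 4 there were 0.82, 3.62 and 4.97 counts of Ampd1 per count of Ampd3 (lowest, median and highest), against 102, 156 and 210 in uninjured muscle, and the medians were 8.38, 6.63 and 8.86 at days 7, 11 and 15. The log2 ratio of Ampd3 to Ampd1 was higher than in uninjured muscle by 5.82 ± 0.44 at day 4, which is 56.7-fold, and by 4.17 ± 0.49, 4.27 ± 0.38 and 4.25 ± 0.28 at days 7, 11 and 15 (SE, n = 6 each). Each reached the smallest possible p of the exact permutation test, 0.00216. Both genes were already without overlap at every day, so this p too was fixed by their levels. Without female day 4 replicate 2, the library in which counts of Ampd3 exceeded those of Ampd1, the day 4 difference was 5.49.

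Gatm, which encodes the enzyme of the first step of creatine synthesis, rose most at day 4 and had a lower median at each later day. It stood at 90.0, 100.7 and 161 CPM (lowest, median and highest) at day 4, against 1.84, 7.45 and 14.3 CPM in uninjured muscle, and at medians of 33.6, 25.5 and 13.6 CPM at days 7, 11 and 15. Injured and uninjured libraries did not overlap at days 4 and 7 and overlapped at days 11 and 15. The log2 fold change was 4.01 ± 0.30 at day 4 (adjusted p = 3.77e-11), 2.47 ± 0.29 at day 7, 1.82 ± 0.28 at day 11 and 0.98 ± 0.28 at day 15 (adjusted p = 0.00315), and the day 4 value was 3.84 ± 0.31 without female day 4 replicate 2. At day 15 the rise was called in females (2.08 ± 0.41, adjusted p = 0.000116) and not in males (-0.12 ± 0.39, adjusted p = 0.822), and the test of the difference gave 2.20 ± 0.56 with an adjusted p of 0.0950.

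Gamt, which encodes the methyltransferase of the last step, rose less and was highest at day 7. It stood at 98.5, 118 and 269 CPM (lowest, median and highest) at day 7, against 23.2, 33.3 and 57.5 CPM in uninjured muscle, with medians of 74.0 CPM at day 4, 104 CPM at day 11 and 83.6 CPM at day 15. At day 11 the lowest injured library, 46.7 CPM, lay within the uninjured range and was the one labelled female replicate 3. The log2 fold change was 1.24 ± 0.28 at day 4 (adjusted p = 0.000344), 2.04 ± 0.29 at day 7 (adjusted p = 9.50e-07), 1.54 ± 0.28 at day 11 and 1.19 ± 0.28 at day 15, and without the library labelled female day 11 replicate 3 the day 11 value was 1.67 ± 0.27.

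Slc6a8, the creatine transporter gene, changed least of the 9. It stood at 117, 124 and 134 CPM (lowest, median and highest) at day 4, against 165, 199 and 232 CPM in uninjured muscle, and the medians were 126, 108 and 107 CPM at days 7, 11 and 15. At day 11 the ranges overlapped through the library labelled female day 11 replicate 3, at 177 CPM. The log2 fold change with TMM scaling was -0.66 ± 0.16 at day 4 (adjusted p = 0.000493), -0.61 ± 0.16 at day 7, -0.70 ± 0.16 at day 11 and -0.81 ± 0.16 at day 15, and all 4 changed sign with library size alone. Without the library labelled female day 11 replicate 3 the day 11 value was -0.91 ± 0.14. Its locus overlaps that of a predicted RNA gene, Gm32261, at 0.80 to 69.3 CPM, and that of Ckm overlaps A930016O22Rik, at 5.51 to 122 CPM. The Ampd3 locus overlaps that of the protein-coding Rnf141, at 0.55 to 4.93 CPM, and those of B430319F04Rik and Gm39069, which the libraries do not list. The sources do not say whether the counting used strand, so reads in these overlaps cannot be told apart.

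Counts of genes without overlap were also common in the whole table. None of the 9 genes overlapped between injured and uninjured libraries at days 4 and 7, where 56.9% and 44.2% of all tested genes were without overlap. At day 11 there were 6 without overlap, the other 3 being Gatm, Gamt and Slc6a8, and at day 15 there were 8, the exception being Gatm, and the shares of all genes were 46.2% and 45.2%.

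Most change between the injured days fell between day 4 and day 7. Day 7 was higher than day 4 for Ampd1 (1.75 ± 0.35, adjusted p = 0.000855), Ak1 (1.06 ± 0.33, adjusted p = 0.0150) and Gamt (0.80 ± 0.28, adjusted p = 0.0285), and lower for Gatm (-1.54 ± 0.27, adjusted p = 0.000367) and Ckb (-1.43 ± 0.26, adjusted p = 0.000415). These were 5 of 9 genes, where 35.2% of all genes were called, and without female day 4 replicate 2 there were 3, Ampd1, Ckb and Gatm. With library size alone Gamt was not called (0.68 ± 0.28, adjusted p = 0.0618) and the other 4 were. None of the 9 was called by edgeR between days 7 and 11, where 0.0584% of all genes were, with 1 gene at an unadjusted p under 0.05 and 0 called by DESeq2. None was called between days 11 and 15 (4.24% of all genes), where Gatm fell short at -0.84 ± 0.27 (adjusted p = 0.0760), was the 1 gene with an unadjusted p under 0.05 and was the 1 gene called by DESeq2. Without the library labelled female day 11 replicate 3, and likewise without male day 7 replicate 2, edgeR called Gatm there too. Against day 4, day 15 was higher for Ckmt2, Ak1 (1.54 ± 0.33) and Ampd1 (1.52 ± 0.35) and lower for Gatm (-3.03 ± 0.29) and Ckb (-2.07 ± 0.26), 5 of 9 where 52.1% of all genes were called. Ckm, Ampd3, Slc6a8 and Gamt were not called in that contrast.

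Ordered by their medians, Ckm, Ckmt2, Ak1, Ampd1 and Slc6a8 were highest in uninjured muscle, apart from the next condition in each case. For Slc6a8 the next condition was day 7, and its uninjured range still overlapped with that of day 11. Ckb and Gatm were highest at day 4, also without overlap with the next condition, which was day 7 in both. For Ak1 and Ampd1 the order was uninjured muscle, then days 7, 11 and 15 with overlapping ranges, then day 4, whose libraries lay below all those of days 11 and 15 and overlapped with those of day 7. Ampd3 had its uninjured level apart at the bottom, and its 4 injured days overlapped.

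Females and males were compared in the same fit. In uninjured muscle none of the 9 genes was called by edgeR, where 0.642% of all genes were. Gatm had 4.07 ± 2.19 CPM in females and 11.0 ± 2.91 CPM in males (SD, n = 3 each), a log2 difference of -1.43 ± 0.40 with an adjusted p of 0.107, and Gamt had -0.88 ± 0.40 with an adjusted p of 0.350. These 2 had unadjusted p under 0.05, and DESeq2 called 1, Gatm. Of 36 tests of a sex difference in the response to injury, over 9 genes and 4 days, edgeR called 0, and 6 had an unadjusted p under 0.05, among them Gatm at each day. All 4 days were set against the same uninjured libraries, so the Gatm tests are not independent of each other. The shares of all genes called were 0.0467, 0.123, 0.0584 and 0.210% at days 4, 7, 11 and 15, and DESeq2 called Gatm at day 15. The day 11 tests hold the library labelled female day 11 replicate 3, whose sex genes go against its label. Without it edgeR again called 0 of 9 at day 11, where Gatm had 1.66 ± 0.55 (adjusted p = 0.325), against 1.35 ± 0.55 with it (adjusted p = 0.435). Within females 9, 8, 8 and 9 of the 9 genes were called at the 4 days, with Slc6a8 missing at days 7 and 11 (64.8, 64.3, 65.6 and 61.2% of all genes). Those 2 calls depended on single libraries. Without the library labelled female day 11 replicate 3, edgeR called all 9 genes in females at every day (66, 65.5, 62.3 and 62.4% of all genes). Slc6a8 then stood at -0.85 ± 0.20 at day 11 (adjusted p = 0.000914), against -0.49 ± 0.22 with that library (adjusted p = 0.0536). Without female day 4 replicate 2, Slc6a8 was called in females at days 7 and 11 and missed at day 4 (-0.53 ± 0.24, adjusted p = 0.0597). Within males 8, 9, 8 and 6 were called, with Gamt missing at day 4, Ckmt2 at day 11, and Gamt, Ckmt2 and Gatm at day 15 (57.5, 51.4, 51.1 and 47.7% of all genes), and Ckmt2 at day 11 was called in males without female day 4 replicate 2.

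Other genes of the same pathways were followed at day 4 as lists, to be read beside the 40.1% of all tested genes that were higher and the 33.0% that were lower at that day. Among the other adenylate kinases, 3 of 6 tested genes were higher and 2 lower, and Ak6 fell (-2.08 ± 0.23), Ak5, a brain isoform, rose from a very low level (1.43 ± 0.42, adjusted p = 0.00387; 0.87 CPM at day 4 against 0.34 CPM in uninjured muscle, means) and the mitochondrial Ak3 fell with TMM scaling (-0.80 ± 0.14), a direction that turned with library size alone. Of 16 genes of the purine nucleotide cycle and AMP breakdown, 9 were higher and 4 lower. Adssl1, the muscle adenylosuccinate synthase that acts after AMP deaminase in the cycle, fell to 338 ± 122 CPM at day 4, against 2692 ± 783 CPM in uninjured muscle (SD, n = 6 each; log2 -2.95 ± 0.37). Ada, adenosine deaminase, rose by 2.55 ± 0.29 on the log2 scale, and Pnp, purine nucleoside phosphorylase, by 2.44 ± 0.28.

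The AMP-activated protein kinase, which senses AMP, had 2 subunit genes higher and 5 lower of 7. The largest changes were falls of Prkab2 (-2.76 ± 0.46), Prkaa2 (-2.70 ± 0.47) and Prkag1 (-1.54 ± 0.11), the first of these being the beta subunit gene most used in muscle. Of 10 genes of purine synthesis 2 were higher and 6 lower. Among these Prps2 rose (2.23 ± 0.23), while its relative Prps1 (-1.72 ± 0.28) and Ppat, the first committed step (-1.25 ± 0.27), fell with TMM scaling. With library size alone neither was called, Prps1 at -0.42 (adjusted p = 0.110) and Ppat at 0.045, and Prkag1 was not called either, at -0.24 (adjusted p = 0.0743). Of 10 genes of nucleoside diphosphate kinases and ATP exchange 2 were higher and 7 lower. Slc25a4, the muscle carrier of ATP and ADP across the inner mitochondrial membrane, fell to 1273 ± 440 CPM at day 4, against 11010 ± 1696 CPM in uninjured muscle (SD, n = 6 each; log2 -3.12 ± 0.41), and the outer membrane channels Vdac3 (-2.67 ± 0.33) and Vdac1 (-2.63 ± 0.37) fell too. With library size alone the day 4 counts were 4 higher and 1 lower for the adenylate kinases, 12 and 4 for the purine cycle, 3 and 2 for the kinase subunits, 7 and 0 for purine synthesis and 3 and 4 for the exchange genes. On that scaling 73.5% of all tested genes were higher and 8.65% lower. The 15 genes named from these lists were picked among the called ones for the size of their change.

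**Figure D5:**
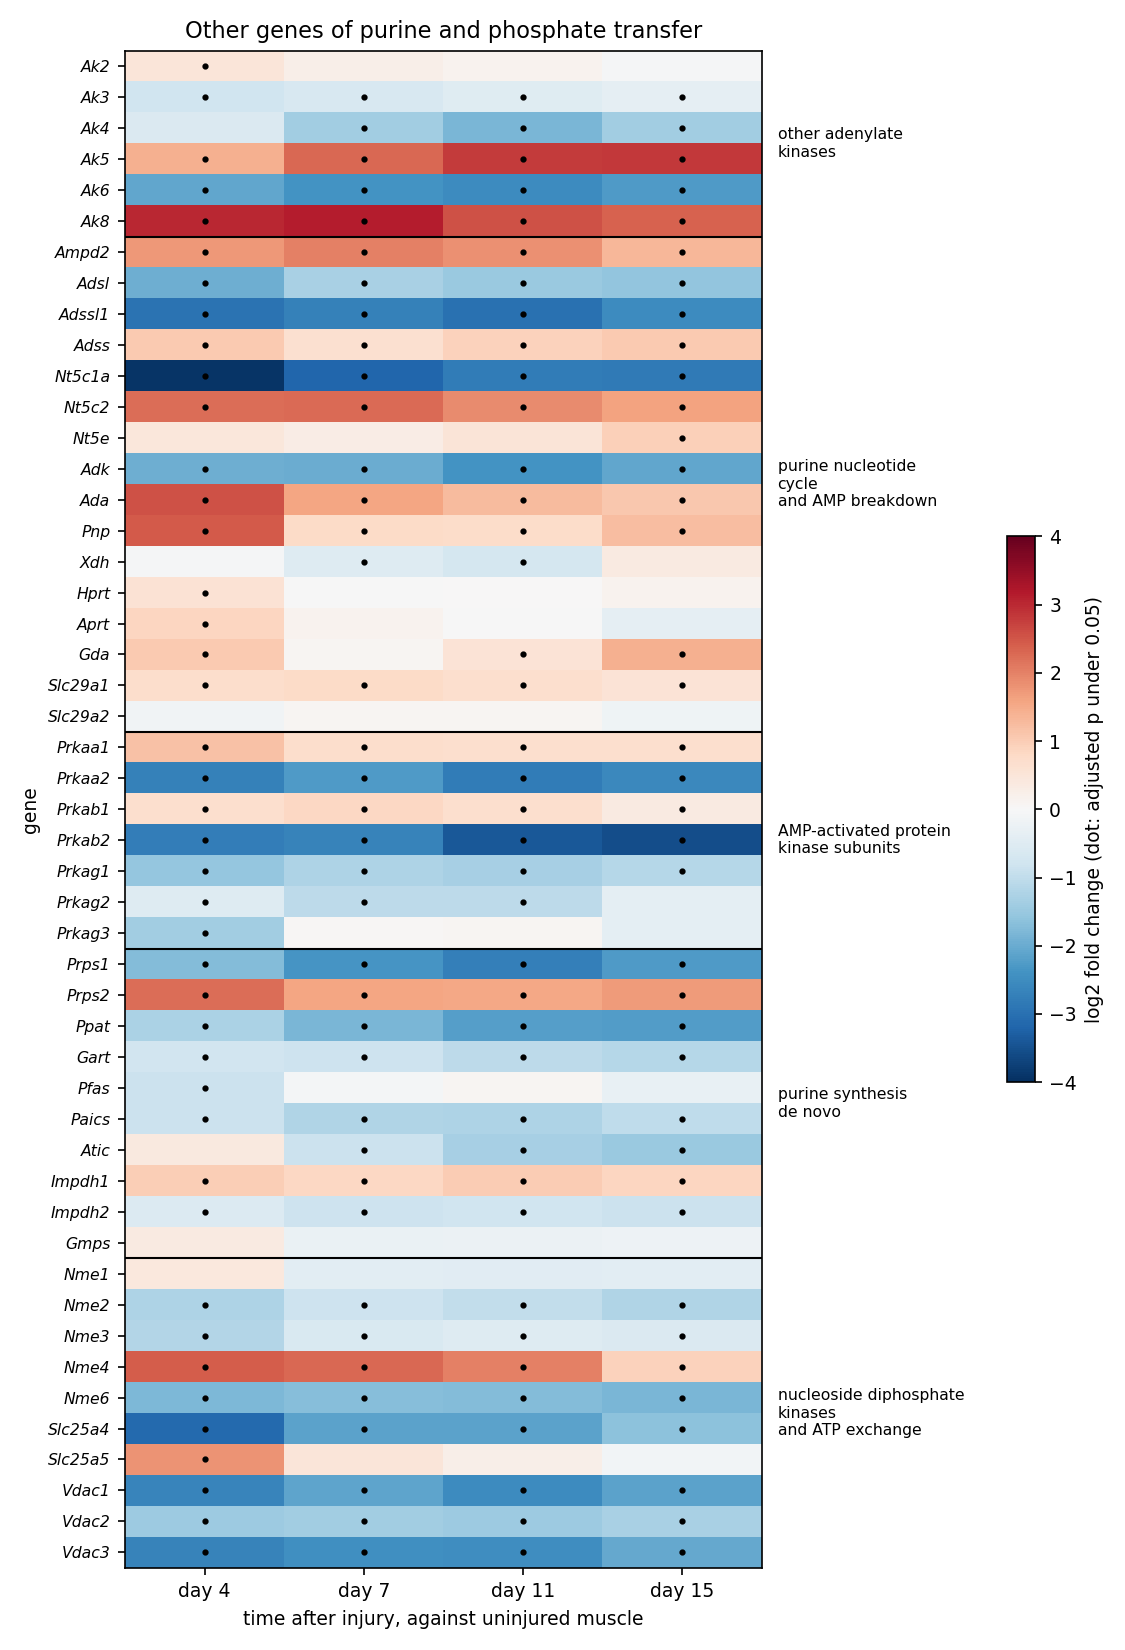
Log2 fold change in injured over uninjured muscle at days 4, 7, 11 and 15, with TMM scaling, for the tested genes of 5 pathway lists, as colour from blue (lower) to red (higher), with a dot where the adjusted p was under 0.05. Adssl1 and Slc25a4 are among the deepest blue cells and Ada, Pnp and Prps2 among the red ones at day 4.

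The marker lists give a scale for the 5 genes that fell. The 15 fast fibre markers had a median log2 fold change of -3.42 at day 4, with 14 called lower, and of -2.27, -2.43 and -1.83 at days 7, 11 and 15. Ckm stood at -4.06, -3.33, -4.05 and -3.44, lower than this median at every day. Near it lay Ckmt2, at -3.56, -2.58, -2.57 and -1.77, and Ampd1, at -3.86, -2.10, -2.44 and -2.33. Ak1, at -3.15, -2.08, -2.03 and -1.61, fell less than the marker median at every day, as did Slc6a8. The median of the 9 tested members was that of Slc6a8, which lay between the 4 that rose and the 4 that fell further, and it was -0.66, -0.61, -0.70 and -0.81 at the 4 days, beside 0.17, 0.24, 0.32 and 0.26 for all tested genes. This median was 0.64, 0.53, 0.44 and 0.23 with library size alone, beside 1.47, 1.42, 1.46 and 1.30 for all genes. Among genes that rose after injury, 12 of 12 macrophage markers were called higher at day 4 with a median of 6.29, 10 of 11 markers of regenerating fibres and myoblasts with a median of 5.95, 8 of 9 fibroblast markers with a median of 3.53, and 5 of 7 osteoclast and multinucleated macrophage markers with a median of 4.02. Of 8 genes of the muscle denervation response 6 were higher and 1 lower, with a median of 3.86. The macrophage sum had medians of 2508, 1046, 968 and 560 CPM at days 4, 7, 11 and 15, beside those of Ckb and Gatm, which also stood highest at day 4. The sums of the markers of regenerating fibres and myoblasts, with medians of 6459, 3605, 3298 and 1315 CPM, and of the denervation genes, with 1043, 517, 397 and 356 CPM, had the same order of days. Those of the fibroblast markers, with 11530, 12277, 18495 and 10892 CPM, were highest at day 11. So were those of the osteoclast and multinucleated macrophage markers, with 147, 145, 178 and 97.7 CPM. Markers called at day 4 among the remaining lists were 5 lower of 8 endothelial genes, 2 higher and 4 lower of 8 smooth muscle genes, 2 higher and 6 lower of 8 Schwann cell genes, 1 lower of 5 adipocyte genes and 0 of 3 erythroid genes. With library size alone 7 endothelial genes were higher and 0 lower, and 5 smooth muscle genes were higher and 1 lower. Schwann cell genes were then 3 higher and 1 lower, adipocyte genes 0 and 0, and erythroid genes 2 and 0. These stand beside 73.5% of all tested genes higher and 8.65% lower on that scaling. The part of any of these cell types in the values of the 9 genes was not tested.

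The genes whose group means over the 10 combinations of sex and time lay nearest to each member, after centring, were named by their root mean square difference in log2 CPM. Ckm was followed most closely by Mybpc2, a fast fibre gene that is also in the marker list (0.21), by Synm (0.26) and by Dusp26 (0.27). For Ckmt2 they were Perm1 (0.28), Aldh1a1 (0.31) and Car14 (0.35), for Ak1 Mtln (0.11), Prr33 and Hhatl (0.16 each), and for Ampd1 Tcea3 (0.22), Adhfe1 (0.24) and Phkg1 (0.26). For Ckb they were Ralgps2 and Tmem164 (0.15 each) and Tgfbi (0.17), and for Ampd3 Arhgef2 (0.15), Wdr90 (0.17) and Farp1 (0.18). The 3 nearest to Gatm were genes of the cell cycle, Ncapg2 (0.30), Ccne1 (0.32) and Tpx2 (0.33). For Gamt they were Naalad2 (0.18), Yeats2 and Stard9 (0.21 each), and for Slc6a8 Nup210, Gemin2 and Hnrnph3 (0.09 each). All these group means share the difference between injured and uninjured muscle, and the values are a description.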

How the data were processed

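The authors deposited a whole-number count for each of 26264 gene symbols in every one of 30 libraries. The submitters' processing notes name STAR, edgeR and the build mm39. How reads were assigned to genes, and whether strand was used, is not given in the sources consulted. Of the counts from 1 to 20 in each library, 65.5 to 77.5% were even. RNA and libraries were prepared commercially, per the labels' protocols. Floors cover counting error only.

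From the deposited counts, genes were kept with filterByExpr (17136 kept, 9128 removed), scaled by TMM and fitted in edgeR 4.0.16 (R 4.3.3) with 1 mean for each of 10 groups of sex and time over all 30 libraries. Contrasts weighted both sexes equally and were tested with glmQLFTest. Benjamini-Hochberg adjustment ran over all tested genes, with calls made below 0.05. Ratios used log2 of counts plus 0.5 and an exact permutation test in scipy 1.17.1. Replicates differed far beyond counting noise, with a lowest chi-square per degree of freedom of 16.2. Alternative settings were other low-count filters, RLE scaling, library size alone, thinning to the smallest total, DESeq2 1.42.0, a fit of only the groups compared, a replicate block, another pseudocount and leaving out libraries. The fit was tested on simulated data for day 4 against uninjured muscle over 17136 genes. There 70% of 50 genes raised 2-fold and 100% of 50 genes raised 8-fold were recovered. Of 50 genes lowered to 0.5 of their level 74% were recovered, and of 50 lowered to 0.125 all were. Few genes were changed and as many rose as fell, whereas 73.1% of all tested genes were called in the real data. The simulation therefore does not check the scaling.

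All members are named. From each pathway list the 3 called genes with the largest change at day 4 and a mean CPM of at least 1 are named, and for each member the 3 nearest genes with a mean CPM of at least 5, leaving out predicted genes. The members and lists were chosen with earlier results of these data known. Of the listed pathway symbols, 3 were matched to older symbols in the files through RefSeq. Promoters come from RefSeq and exon lengths from GENCODE M21.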

Additional observations from a re-analysis of the deposited data

Results flagged for a closer look

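Within each condition, the highest and lowest of 6 libraries were compared with their nearest neighbour for each member and ratio. Of 55 such sets 7 had a gap above 0.625 of the range, a limit that chance passes in about 1 of 20. Of these, 5 came from female day 4 replicate 2. On the log2 CPM scale it held Ckm at 8.33, against 10.62 to 11.33 in the other 5 libraries of day 4, Ckmt2 at 5.05, against 8.04 to 9.62, and Ampd1 at 5.04, against 6.75 to 7.74. It held Gatm at 7.33, against 6.49 to 6.74, and its log2 ratio of Ckb to Ckm was -0.36, against -3.71 to -2.84. Its fibre marker sum was the lowest of the day, 11984 CPM, and the part of this in its values was not tested.

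Ampd3 stood out in a pair of other libraries. It stood at 6.11 (log2 CPM) in female day 4 replicate 1, against 5.31 to 5.60 in the other 5 libraries of day 4. It stood at 6.65 in the library labelled female day 11 replicate 3, against 5.13 to 5.49, and this is the library whose sex genes go against its label. No member had a sex difference in its response that passed adjustment with edgeR over all libraries, and 6 of 36 had an unadjusted p under 0.05. DESeq2 called 1, Gatm at day 15.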

How the results depend on the processing

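The 36 fold changes of members against uninjured muscle kept their direction under every alternative run except library size alone, which turned Slc6a8 to 0.64, 0.53, 0.44 and 0.23 at days 4, 7, 11 and 15; among the named pathway genes it turned Ak3 to 0.50 and Ppat to 0.045. It shifted the median of all genes to 1.47, 1.42, 1.46 and 1.30 at the 4 days, against 0.17, 0.24, 0.32 and 0.26 with TMM. Leaving out any 1 library turned no member and ended no call among these 36. The 8 ratio differences held under all alternatives, though each single gene in them was already without overlap.

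Among the named pathway genes Prps1, Prkag1 and Ppat were no longer called with library size alone. Members called at day 7 against day 4 numbered 4 with library size alone, which lost Gamt, 3 when only those groups were fitted, 3 without the 2 libraries that stand apart, and 3 to 5 with 1 library left out. In the main fit 35.2% of all genes were called in that contrast. Day 15 against day 11 gave 1, Gatm, without the 2 libraries that stand apart and 1 with DESeq2, and 0 to 1 with 1 library left out. The sex difference at day 15 gave 1 with only the groups compared and 1 with DESeq2, and uninjured females against males gave 1 with DESeq2. Without female day 11 replicate 3, members called within females at day 4, 7, 11 and 15 numbered 9, 9, 9 and 9. The shares of all genes were 66, 65.5, 62.3 and 62.4%. Without female day 4 replicate 2 the members called numbered 8, 9, 9 and 9, beside 57, 63.7, 64.7 and 60.6% of all genes. With all libraries they numbered 9, 8, 8 and 9, beside 64.8, 64.3, 65.6 and 61.2%. These alternatives were chosen after seeing the data. Taken over all groups together, the mean correlation of residuals was 0.0125 for equal replicate numbers, against -0.00633 for unequal ones. A pairing of only some groups was not tested. For 12 of 30 libraries, among the 3 replicate numbers, the mean correlation was highest with the library's own number. With a replicate block 9 members were called at each day against uninjured muscle and no other count of calls changed. At day 4 with that block, 40% of all genes were higher and 32.9% lower. The shallowest library was one of day 15, and Ckmt1 did not pass the low-count filter.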
